A study of Mus musculus with 20 samples.

Results

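Serpinb2, Plau and Plaur were followed as 3 of the 46318 genes counted in mouse bone marrow-derived macrophages. The choice was made from a list of plasminogen activation genes, and Serpinb2 was chosen by its measured log2 fold changes, as the largest fall with each compound. Its values describe how it was chosen, and since every contrast holds libraries that took part in the choice, none of its differences is tested here. Plau and Plaur were taken from the same pathway, and their tests were run over all genes. They too were chosen with earlier results of these data known, which their p-values do not take into account. RNA was sequenced from macrophages of C57BL/6 female mice, grown from marrow cells in a medium with 20 ng/mL of a recombinant murine growth factor that the labels spell M-DSF. Mature cells were kept for 24 h in DMSO (the solvent), in DSHN at 50 µM, in GW3965 at 1 µM, or in DSHN at 50 µM with GW3965 at 1 µM, called the combination below. Each of the 4 groups had 5 libraries, which the labels call biological replicates without saying that they came from separate mice, so p-values measure the spread between these cultures. The labels give no genetic change in any group. The series describes GW3965 as an LXR agonist, LXR being a receptor for oxysterols that drives cholesterol export, and DSHN as one of NR0B2, an orphan nuclear receptor that can inhibit LXR.

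Plasminogen is a circulating zymogen that is cut to plasmin, a protease of fibrin and of matrix proteins. Plau encodes urokinase, one of the enzymes that make this cut, and Plaur encodes the urokinase receptor, which is held in the membrane by a lipid anchor and keeps urokinase at the cell surface. Serpinb2 encodes plasminogen activator inhibitor type 2, a clade B serpin that inhibits urokinase, stays largely inside the cell and is known as a strongly inducible product of activated macrophages. Macrophages use this system when they cross and remodel matrix.

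Serpinb2 (GeneID 18788) lies on chromosome 1 from 107439153 to 107453330 on the plus strand, with 9 merged exons of 2047 bases. Plau (GeneID 18792) lies on chromosome 14 from 20886730 to 20893456 on the plus strand, with 12 merged exons of 2510 bases. Plaur (GeneID 18793) lies on chromosome 7 from 24161857 to 24175393 on the plus strand, with 7 merged exons of 1715 bases. These are GRCm39 positions from the files, and values are reads over all exons of a gene, UTRs included. No other annotated gene overlapped any of the 3. The nearest neighbour of Serpinb2, Serpinb10 at 3394 bases, had 0 to 2 counts per library, and that of Plaur, a gene with no symbol at 1509 bases, had 0, with Cadm4 next at 6055 bases and 0 to 7 counts. The nearest to Plau were the gene models Gm6128 at 12119 bases (0 to 1 counts) and Gm30108 at 40108 bases (0 to 6 counts), followed by Camk2g at 42505 bases (708 to 1110 counts).

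The sequences before the starts of Serpinb2 and Plaur are shown because both genes were lower with every treatment than with DMSO. RefSeq windows on GRCm38.p6 were at hand for 2 of the 3 members. Each run holds the 250 bases before the annotated start, 5′ to 3′ on the plus strand, and capitals mark the motif matches found by a search of both strands. The Serpinb2 window is chr1:107511173-107511422 and the Plaur window is chr7:24462233-24462482.
Serpinb2: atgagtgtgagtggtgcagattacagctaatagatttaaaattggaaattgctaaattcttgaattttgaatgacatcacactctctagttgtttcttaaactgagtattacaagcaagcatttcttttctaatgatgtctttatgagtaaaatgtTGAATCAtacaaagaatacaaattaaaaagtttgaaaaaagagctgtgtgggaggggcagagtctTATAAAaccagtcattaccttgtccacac
Plaur: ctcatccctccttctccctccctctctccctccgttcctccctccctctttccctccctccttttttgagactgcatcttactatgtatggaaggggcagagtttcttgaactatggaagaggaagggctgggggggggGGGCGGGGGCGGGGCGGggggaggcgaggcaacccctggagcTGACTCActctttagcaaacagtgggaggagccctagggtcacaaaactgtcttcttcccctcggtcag

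The Serpinb2 window held TGAATCA, a match to the AP-1 motif TGANTCA, at 94 to 88 bases before the start, and TATAAA at 29 to 24 bases. A second annotated start of Serpinb2, 87 bases downstream, had these same matches in its window. The Plaur window held the AP-1 match TGACTCA at 69 to 63 bases and 3 copies of GGGCGG, the GC box, between 111 and 95 bases, of which the last 2 overlapped by 1 base. AP-1 is the site of Fos and Jun dimers. The AP-1 motif stood in 6.749% of the 32851 windows of 250 bases in the table, TATAAA in 12.368% and GGGCGG in 32.742%. Searches for the CRE TGACGTCA (1.546% of windows), the LXR half-site repeat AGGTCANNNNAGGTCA (0.015%) and the NF-kB motif (7.251%) found no match in these windows. A match is a description of the letters, and binding was not measured.

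Library totals ran from 16855029 to 23796561 counts. Levels are in CPM, that is counts relative to a library total adjusted by edgeR's TMM factors, and a gene was called at a Benjamini-Hochberg adjusted p under 0.05 in edgeR's quasi-likelihood test over 13307 genes. All 8 macrophage markers were present, with Csf1r at 1374 to 2374 CPM and Adgre1 at 1208 to 1986 CPM. Of 6 fibroblast and stromal markers, 4 had a mean over 1 CPM, led by Col1a1 (1047 to 1749 CPM), while Lum was at 0 to 0.1802 CPM and Dcn at 0.05452 to 0.6306 CPM. The sum of those 6 ran from 2278 to 2871 CPM in DMSO libraries, 2424 to 3077 in DSHN, 2536 to 3321 in GW3965 and 1900 to 2319 in combination libraries. Within groups, the libraries with more of it had less of the members: correlations of deviations from the group mean were -0.477 for Serpinb2, -0.675 for Plau and -0.611 for Plaur over 20 libraries, and its part in the results was not tested. Mast cell and basophil markers summed to 2.036 to 4.955 CPM with DMSO and 1.847 to 3.52 CPM in the treated libraries, with Mcpt8 at 1.511 to 4.143 CPM, Gata2 at 0.04483 to 0.991 CPM, Tpsb2 at 0, and Ms4a2 and Cpa3 each at no more than 0.05759 CPM. Endothelial markers summed to 9.289 to 10.8 CPM with DMSO and 5.871 to 9.682 CPM in the treated libraries. The part of these lists in the differences from DMSO was not tested. The combination libraries also had fewer counts on long genes, with a slope of -0.124 to -0.0943 log2 CPM per doubling of exon length against 0.00566 to 0.063 in the other 15. In these bulk samples, fewer cells of a type and less RNA per cell cannot be told apart.

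Serpinb2 was lower in all 15 treated libraries than in any DMSO library. DMSO libraries 1 to 5 had 9.64, 8.142, 7.459, 12.21 and 13.79 CPM (163 to 253 counts). With DSHN the level was 2.489, 2.21, 1.48, 1.847 and 2.545 CPM (33 to 60 counts). DMSO libraries 4 and 5 were the highest of their group, and the DSHN libraries lay close together. With GW3965 it was 1.573, 1.581, 0.7014, 2.568 and 1.085 CPM (14 to 57 counts), and with the combination 1.219, 1.368, 1.127, 2.214 and 1.209 CPM (21 to 39 counts). The 3 treated groups overlapped each other, and library 4 was the highest with GW3965 and with the combination.

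Mean Serpinb2 was 10.25 ± 2.692 CPM (SD, n = 5) in DMSO libraries, 2.114 ± 0.4498 in DSHN, 1.501 ± 0.7003 in GW3965 and 1.428 ± 0.4482 in combination libraries. On the log2 scale it differed from DMSO by -2.26 (SE 0.20) with DSHN, by -2.74 (SE 0.22) with GW3965 and by -2.84 (SE 0.22) with the combination, or 4.794-fold, 6.679-fold and 7.15-fold lower. The same DMSO libraries enter all 3 values. Its groups did not overlap with DMSO in any of the 3, a separation downward that 9.61%, 15.5% and 25.8% of all tested genes had. Serpinb2 was chosen for its fall in these libraries, so this separation is no separate finding. The counts behind the treated levels are small, and the spread between libraries was 46.6% of the mean with GW3965 against 26.3% with DMSO, 21.3% with DSHN and 31.4% with the combination.

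Among the 10198 genes with at least 5 CPM in a group, Serpinb2 stood first in the size of its fall in each of these contrasts. It reached that minimum only with DMSO (10.25 CPM), and this order restates how it was chosen. Fos, an immediate early gene whose product is a part of AP-1, was next with DSHN (-1.94) and with GW3965 (-2.50). D830031N03Rik, a gene with no role named in the files, was next with the combination (-2.72). These are the values just outside the rule. Without the level minimum, Serpinb2 was the second of all 13307 genes with DSHN, after Odaph (-2.35), the third with GW3965, where Arg1, the arginase of alternatively activated macrophages, led (-3.09), and the first with the combination.

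The treated groups lay close together for Serpinb2, and the differences between them are given as values with no test. Their 95% intervals come from the same fit and are not to be read as tests, since these libraries took part in the choice. The combination differed from GW3965 by -0.10 (log2, SE 0.31), a fold of 0.9341 with a 95% interval from 0.603 to 1.45. Without library 4 of GW3965 this value was 0.22, with the opposite sign. The combination differed from DSHN by -0.58 (SE 0.29), a fold of 0.6705 with an interval from 0.446 to 1.01. GW3965 differed from DSHN by -0.48 (SE 0.28), a fold of 0.7178 with an interval from 0.484 to 1.06. In order of level the groups were DMSO, DSHN, GW3965 and the combination, and the libraries of neighbouring treated groups overlapped.

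**Figure D1:**
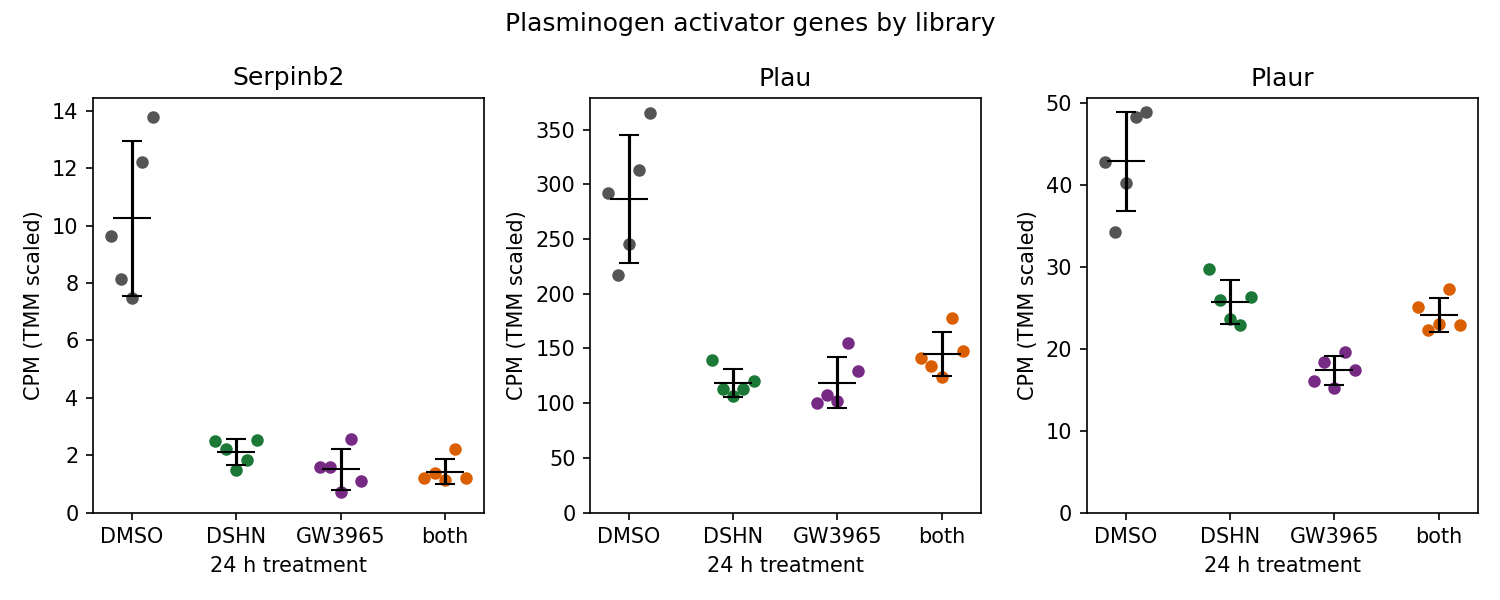
Level of Serpinb2, Plau and Plaur in CPM (vertical axes, linear, each from 0) in the 20 libraries, by treatment. Points are libraries, and the line and bar give the mean and SD of 5. All treated points lie below the DMSO points for each gene, and the Plaur level with GW3965 (15.28 to 19.68 CPM) lies below those with DSHN and with both compounds.

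Plau fell with each compound and with the combination, to about the same level with either compound alone. DMSO libraries 1 to 5 had 292.4, 216.7, 245.7, 313 and 365.4 CPM. The DSHN libraries had 139.5, 113, 106.8, 113.4 and 120.6 CPM. All DSHN libraries were below the lowest DMSO library, with library 1 the highest of them. With GW3965 the level was 100.5, 107.8, 101.6, 155.1 and 129.4 CPM, and with the combination 141.2, 134.4, 123.7, 177.4 and 147.7 CPM. In both of these groups library 4 was the highest, as for Serpinb2, and the groups overlapped with each other and with DSHN.

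Mean Plau was 286.6 ± 58.11 CPM (SD, n = 5) in DMSO libraries, 118.7 ± 12.62 in DSHN, 118.9 ± 23.35 in GW3965 and 144.9 ± 20.21 in combination libraries. It fell by 1.27 on the log2 scale with DSHN (SE 0.12, adjusted p = 1.46e-08), by 1.27 with GW3965 (SE 0.12, adjusted p = 3.14e-09) and by 0.98 with the combination (SE 0.12, adjusted p = 7.17e-08). Those are 2.412-fold, 2.406-fold and 1.978-fold falls. Genes called lower made up 14.8%, 23% and 32.9% of all tested genes in these contrasts, which all use the same DMSO libraries. GW3965 and DSHN gave Plau levels that differed by 0.00 (SE 0.12, adjusted p = 0.99), with a fold between 0.842 and 1.19.

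Plau with the combination was close to the threshold against both single compounds. It was 0.28 above GW3965 (SE 0.12, adjusted p = 0.0505), a fold of 1.216 with a 95% interval from 1.02 to 1.45, and was not called. The value was called in 7 of 10 other settings, the replicate block among them (0.29, adjusted p = 0.00704). It was 0.29 above DSHN (SE 0.12, adjusted p = 0.0475), a fold of 1.219 with an interval from 1.02 to 1.45, and was called. The second call was lost with the length correction (0.20, adjusted p = 0.175) and with DESeq2 (0.29, adjusted p = 0.0962), and without any of libraries 2, 3, 4 and 5 of DSHN or 1, 4 and 5 of the combination, where the values ran from 0.21 to 0.36 with adjusted p up to 0.157. Neither difference is firm. In all tested genes 28.6% were called higher with the combination than with DSHN.

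Plaur fell with each compound, and fell furthest with GW3965 alone. DMSO libraries 1 to 5 had 42.79, 34.27, 40.27, 48.35 and 48.9 CPM. With DSHN the level was 29.79, 25.94, 23.63, 22.95 and 26.39 CPM, and with the combination 25.09, 22.34, 23.03, 27.37 and 22.92 CPM. The DSHN and combination libraries covered almost the same range, all below DMSO. The GW3965 libraries had 16.06, 18.43, 15.28, 19.68 and 17.41 CPM, and none of them reached the lowest library of another group.

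Mean Plaur was 42.92 ± 6.065 CPM (SD, n = 5) in DMSO libraries, 25.74 ± 2.699 in DSHN, 17.37 ± 1.771 in GW3965 and 24.15 ± 2.076 in combination libraries. It fell by 0.73 on the log2 scale with DSHN (SE 0.08, adjusted p = 3.39e-07), by 1.30 with GW3965 (SE 0.09, adjusted p = 5.28e-12) and by 0.83 with the combination (SE 0.09, adjusted p = 4.5e-09), which are 1.66-fold, 2.459-fold and 1.773-fold falls. GW3965 was 1.482-fold below DSHN (log2 difference -0.57, SE 0.09, adjusted p = 4.92e-05), where 8.82% of all genes were called lower and 6.11% did not overlap downward.

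Plaur rose with the combination against GW3965 by 0.47 (SE 0.09, adjusted p = 0.000114), a fold of 1.387 with a 95% interval from 1.21 to 1.59. The groups did not overlap. Of all tested genes, 28.3% were called higher in this contrast and 19.8% did not overlap upward, so such a rise was common among genes. With the length correction the rise was 0.28 (adjusted p = 0.0117). The combination and DSHN differed by -0.10 (SE 0.09, adjusted p = 0.381), a fold between 0.824 and 1.06, and by -0.28 (adjusted p = 0.00874) with the length correction. GW3965 was thus the lowest group for Plaur and DMSO the highest, while DSHN and the combination could be told apart only with that correction.

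**Figure D2:**
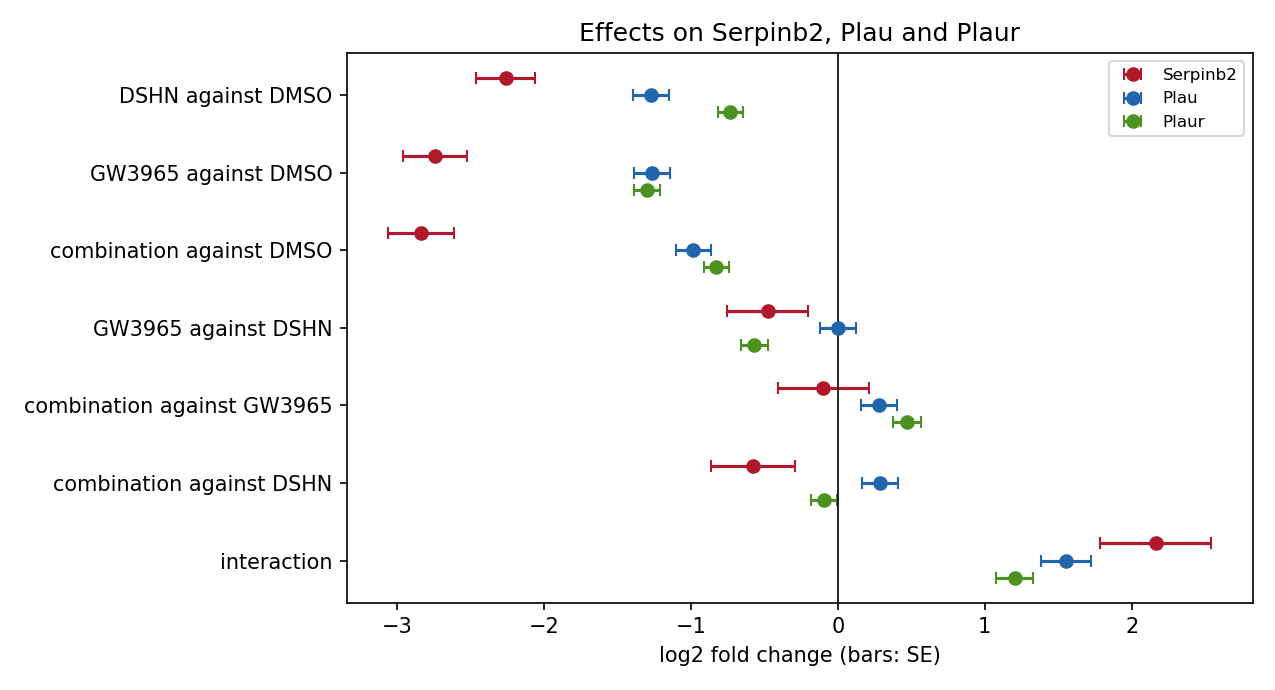
Log2 fold change (horizontal axis) of Serpinb2, Plau and Plaur in 7 contrasts, with bars of 1 SE from the fit over 20 libraries. The 3 contrasts against DMSO are all negative, the interaction is positive for each gene, and Plaur lies below 0 for GW3965 against DSHN (-0.57) where Plau lies at 0.00.

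With both compounds each of the 3 genes was less far below DMSO than the 2 single effects added together. For Plau the log2 effects of DSHN and GW3965 sum to -2.54 and the combination measured -0.98. For Plaur the sum is -2.03 and the combination measured -0.83. The interaction, the DSHN effect in the presence of GW3965 minus that in its absence, was 1.55 for Plau (SE 0.17, adjusted p = 7.12e-08) and 1.20 for Plaur (SE 0.13, adjusted p = 3.32e-08), beside 23.7% of all genes called higher in it. For Serpinb2 the sum is -5.00 against a measured -2.84, and the interaction of 2.16 (SE 0.38) was not tested for the same reason as its other contrasts. The summed effects would put Serpinb2 at 0.32 CPM, below the 0.7014 CPM of its lowest library.

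Compared per length, Plau was the most abundant of the 3 in every group and Serpinb2 the least. In CPM per kb of exon, DMSO cells had 114.2 ± 23.15 of Plau, 25.03 ± 3.537 of Plaur and 5.006 ± 1.315 of Serpinb2 (SD, n = 5). The combination had 57.72 ± 8.053, 14.08 ± 1.21 and 0.6974 ± 0.219. The Plau level over the Serpinb2 level, per length, was 23.17 ± 2.537 in DMSO libraries (20.91 to 26.86), 47.01 ± 7.898 with DSHN (38.67 to 58.87), 74.48 ± 31.29 with GW3965 (49.26 to 118.1) and 85.8 ± 13.51 with the combination (65.33 to 99.57). Every treated library had a higher ratio than every DMSO library, which follows from the larger difference of Serpinb2 that chose it.

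Within groups the 3 members varied together. Library 5 and then library 4 were the highest of the DMSO group for all 3 genes, and library 4 was the highest for all 3 with GW3965 and with the combination. With DSHN, libraries 1 and 5 were the highest for each. Over 20 libraries the deviations of log2 CPM from the group means correlated at 0.731 between Serpinb2 and Plau, 0.761 between Serpinb2 and Plaur and 0.863 between Plau and Plaur. These are descriptions without a test, in libraries that share their depth and stromal marker level between the genes.

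**Figure D3:**
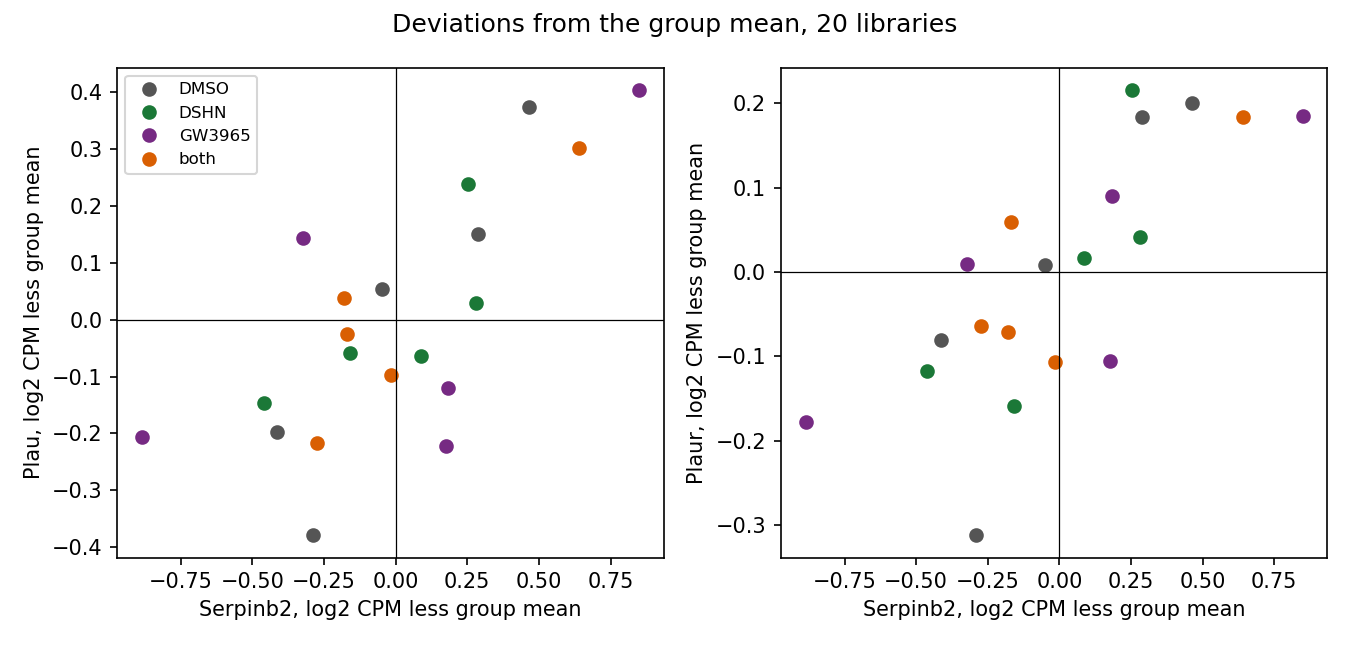
Serpinb2 against Plau and against Plaur in 20 libraries, each as log2 CPM less its group mean, colored by treatment. Libraries with more Serpinb2 than their group mean had more Plau (r = 0.731) and more Plaur (r = 0.761), with no test.

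Of the 6 genes whose log2 CPM followed Serpinb2 most closely over the 20 libraries, among 9998 ranked, 5 are given here: Capn2, a calcium-dependent protease (Pearson r = 0.971), Chst3 (0.966) and Chst11 (0.966), both sulfotransferases of chondroitin, Uck2, a uridine-cytidine kinase (0.963), and Pcdh7, a protocadherin (0.959). These values mostly restate 4 group means. The closest opposite patterns were those of Lamp1, a lysosomal membrane protein (-0.968), Klhl21 (-0.966) and Gyg, the primer of glycogen synthesis (-0.966). By Spearman correlation 0 of the 6 highest stayed among the first 6, and the 5 given stood at ranks from 8 (Chst11) to 83 (Pcdh7). On deviations from the group means the highest were Timm9 (0.859), Sipa1l2 (0.826) and Ptbp1 (0.818). Plaur stood at rank 104 and Plau at rank 116 over the libraries by Pearson correlation, and at ranks 24 and 45 on the deviations. By Spearman correlation over the libraries they stood lower, at ranks 375 (r = 0.798) and 1216 (r = 0.678).

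The wider list held 33 genes of activators, inhibitors and receptors, of which 23 were tested when Serpinb2 is left out. Plau and Plaur are among the 23. Against DMSO, 10 were called lower and 2 higher with DSHN, 13 lower and 5 higher with GW3965, and 14 lower and 4 higher with the combination. Beside them, 14.8%, 23% and 32.9% of all genes were called lower and 14.1%, 23.6% and 31.9% higher. The 3 comparisons share the DMSO libraries. Between the combination and GW3965, 6 were higher and 9 lower, beside 28.3% and 29.5% of all genes. In the interaction 6 were higher and 7 lower, beside 23.7% and 26.5% of all genes. The counts in the interaction lie near these shares.

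Of 5 activators and zymogens, Plau and Plat were tested and both were called lower than DMSO with every treatment (2 of 2), with medians of -0.98, -0.95 and -0.97 where the median of all genes was 0.00, 0.01 and 0.01. Genes called lower made up 14.8%, 23% and 32.9% of all tested genes. With 2 genes, of which Plau is a member, the count says little about the list. Plat encodes the tissue-type activator and had a low level of 4.995 ± 0.9141 CPM with DMSO (SD, n = 5). It is named although it lies just under the 5 CPM minimum, and was chosen after its values were seen. Plat fell by 0.68 with DSHN (adjusted p = 0.000538), by 0.64 with GW3965 (adjusted p = 0.000463) and by 0.96 with the combination (adjusted p = 2.69e-06), and its interaction (0.36, adjusted p = 0.165) was not called, except without library 2 of GW3965 (0.51, adjusted p = 0.0394). Plg, the plasminogen gene itself, had 0 counts in all 20 libraries, which allows up to 0.00751 CPM by counting error. F12 (0 to 1 counts per library) and Klkb1 (1 to 9), encoding plasma proteases that can activate plasminogen, were too low to test.

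Of the inhibitors reported here, 4 besides Serpinb2 were tested, and 1 of them was called against DMSO, as higher with each treatment. With 4 genes this count lies near the 14.1%, 23.6% and 31.9% of all tested genes called higher. The gene called was Serpinb6a, an intracellular clade B serpin, at 538.8 CPM in DMSO libraries, 688.6 in DSHN, 831.9 in GW3965 and 887.9 in combination libraries. It rose by 0.35, 0.63 and 0.72 (adjusted p = 6.02e-07, 4.83e-12 and 1.49e-13), the opposite direction to its clade member Serpinb2. Serpine2, encoding protease nexin 1, was not called against DMSO, with 0.06 (DSHN), 0.11 (GW3965) and 0.08 (combination) and adjusted p of 0.505, 0.194 and 0.275. Serpinb8 was not called either, with 0.13, -0.10 and 0.01 and adjusted p of 0.0648, 0.152 and 0.918. Serpina5 and Serpinf2, whose product inhibits plasmin, had 0 to 5 counts per library at most.

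**Figure D4:**
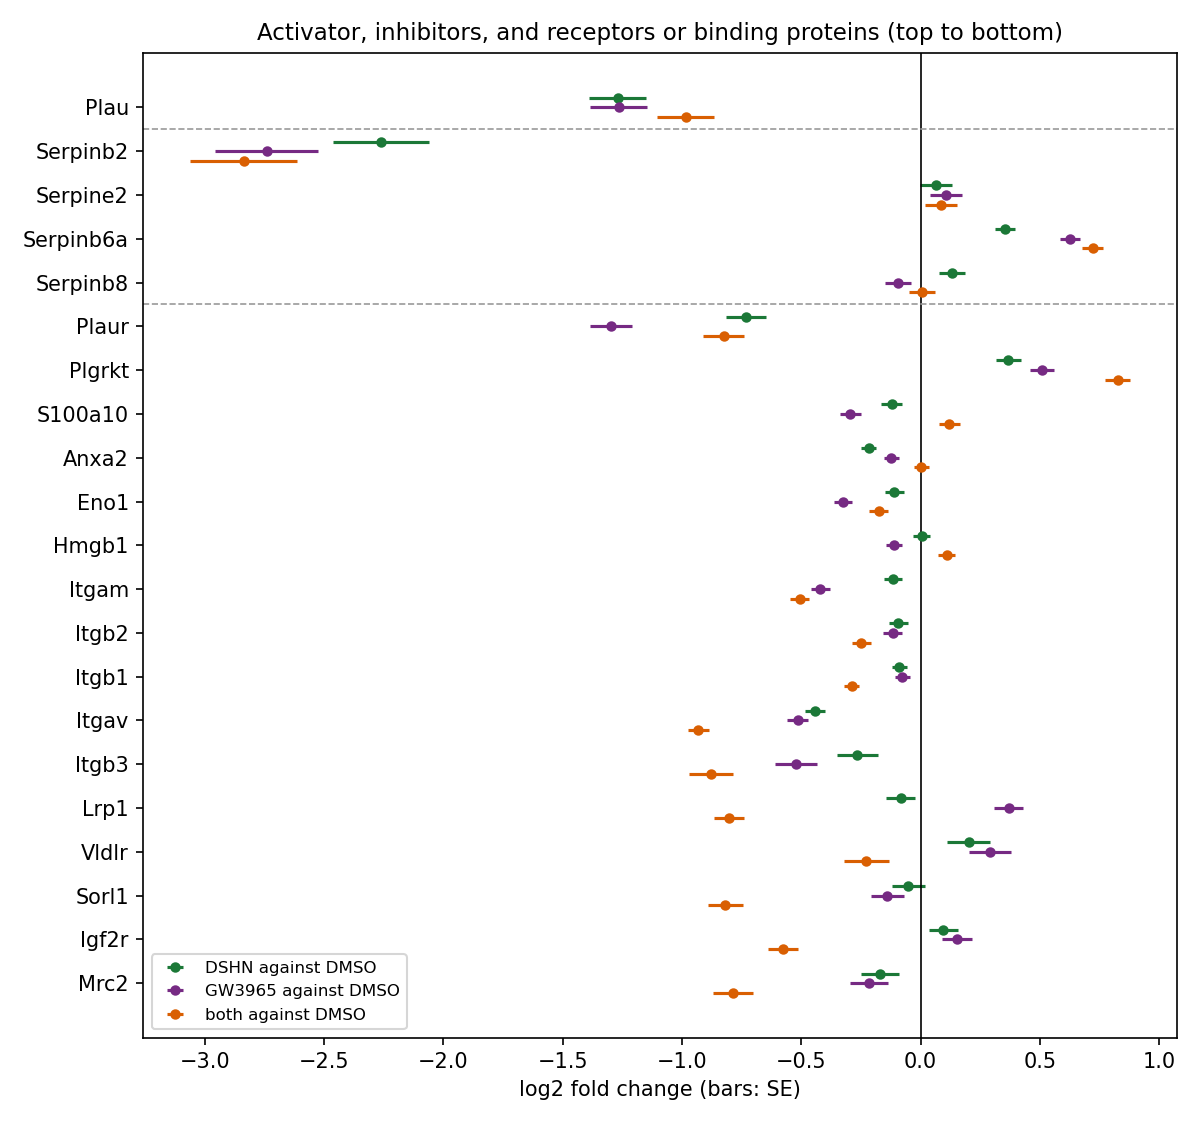
Log2 fold change against DMSO (horizontal axis, bars of 1 SE) with DSHN, GW3965 and both compounds for the genes of the activator, inhibitor and receptor lists with at least 5 CPM in a group. Serpinb2, chosen for its fall, lies farthest to the left with each treatment (-2.26, -2.74 and -2.84), and Serpinb6a and Plgrkt lie to the right with each treatment.

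Of 17 tested receptors and binding proteins, 8 were called lower and 1 higher with DSHN, 11 lower and 4 higher with GW3965, and 12 lower and 3 higher with the combination against DMSO, with medians of -0.11, -0.12 and -0.38. Of all tested genes, 14.8%, 23% and 32.9% were called lower and 14.1%, 23.6% and 31.9% higher in these contrasts. Plgrkt, encoding a plasminogen receptor of the cell surface, was the one that rose with DSHN, from 25.64 CPM with DMSO to 33.08 CPM, and it reached 36.44 with GW3965 and 45.46 with the combination. These rises of 0.37, 0.51 and 0.83 (adjusted p = 5.42e-06, 7.93e-09 and 3.13e-13) ran opposite to Plaur. The combination was above GW3965 by 0.32, and by 0.05 (adjusted p = 0.331) with the length correction. Anxa2 and S100a10 encode the 2 subunits of another plasminogen-binding complex. Anxa2 fell by 0.22 with DSHN (adjusted p = 9.64e-06) and by 0.12 with GW3965 (adjusted p = 0.00269). S100a10 fell by 0.12 with DSHN (adjusted p = 0.0401) and by 0.29 with GW3965 (adjusted p = 5.05e-06). The DSHN call of S100a10 was lost without library 3, 4 or 5 of DMSO or 4 or 5 of DSHN, at -0.12 to -0.10, with no filter (-0.11) and with only the groups compared (-0.12). Against DMSO the combination gave 0.00 for Anxa2 and 0.12 for S100a10, and with the length correction -0.19 and -0.31, so no direction is given for that contrast.

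Of 5 named integrin chains that bind the urokinase receptor or take part in its signals, 4 were called lower with DSHN and 5 each with GW3965 and with the combination. Beside them, 14.8%, 23% and 32.9% of all tested genes were called lower. Itga3, a further integrin chain of the list that lies under the 5 CPM minimum, was tested and not called in any contrast. Between GW3965 and DSHN only Itgam differed (-0.31, adjusted p = 1.17e-06). Itgam, the alpha chain of Mac-1, fell by 0.42 with GW3965 (adjusted p = 1.44e-09) and by 0.51 with the combination (adjusted p = 1.42e-11), and Itgb2, its beta chain, fell by 0.25 with the combination (adjusted p = 6.03e-06). Itgav, the alpha chain of vitronectin receptors, fell with all 3 treatments by 0.44, 0.52 and 0.93 (adjusted p = 1.49e-08, 2.09e-10 and 1.67e-15). Itgb3, its partner, fell by 0.52 with GW3965 (adjusted p = 2.43e-05) and by 0.88 with the combination (adjusted p = 6.14e-09). Itgb1 fell by 0.29 with the combination (adjusted p = 3.94e-09). The integrin falls with the combination are given without the length correction. With it, the interaction of Itgav, a gene of 10171 exon bases, moved from 0.026 to 0.278. The GW3965 call of Itgb1 (-0.076, adjusted p = 0.0389) was lost with the length correction (-0.054, adjusted p = 0.111). The smaller calls with DSHN were less firm. That of Itgam (-0.12) was lost without library 1 or 2 of DMSO or of DSHN, where it ran from -0.11 to -0.10, that of Itgb3 (-0.27) without library 2 (-0.24) or 4 (-0.21) of DMSO, and that of Itgb1 (-0.09) without library 1 or 2 of DMSO (-0.08 for each). Eno1 and Hmgb1, which also bind plasminogen, have near-identical copies elsewhere in the genome, so their counts are uncertain, and with GW3965 they differed from DMSO by -0.33 and -0.11.

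Endocytic receptors that bind urokinase, its receptor or their complexes moved otherwise. Lrp1, which clears urokinase bound to its inhibitors, stood at 2241 CPM in DMSO libraries, 2115 in DSHN, 2893 in GW3965 and 1284 in combination libraries. It rose by 0.37 with GW3965 (adjusted p = 2.24e-05) and fell by 0.80 with the combination (adjusted p = 2.23e-11), and its interaction of -1.09 (SE 0.09, adjusted p = 1.03e-09) has the opposite sign to those of Plau and Plaur. Sorl1, Igf2r and Mrc2 fell with the combination by 0.82, 0.58 and 0.79 (adjusted p = 2.25e-10, 1.12e-08 and 5.13e-09). With the length correction the log2 values of the combination were -0.55 for Lrp1, -0.56 for Sorl1, -0.32 for Igf2r and -0.61 for Mrc2, each still called. Vldlr rose by 0.29 with GW3965 (adjusted p = 0.00796), and its value with the combination was -0.23, or 0.03 with the length correction.

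Among 9 tested genes whose products plasmin cuts or activates, 2 were lower and 1 higher with DSHN, 4 lower and 2 higher with GW3965, and 6 lower and 1 higher with the combination against DMSO. All tested genes were called lower in 14.8%, 23% and 32.9% of cases and higher in 14.1%, 23.6% and 31.9%, and with 9 genes the DSHN count lies near these shares. Mmp12, the macrophage elastase, fell from 1442 CPM with DMSO to 944.2 with DSHN, 720 with GW3965 and 985.3 with the combination. Its log2 falls were 0.61, 1.00 and 0.55 (adjusted p = 8.97e-10, 7.61e-15 and 2.9e-10), and the combination was 0.45 above GW3965 (adjusted p = 1.96e-08). Mmp13, collagenase 3, fell by 0.62, 1.45 and 0.81 (adjusted p = 1.22e-10, 6.4e-19 and 5.79e-14) and was 0.64 higher with the combination than with GW3965 (adjusted p = 5.18e-11). Like Plaur, these 2 metalloprotease genes were lowest with GW3965 alone, and their interactions were 1.06 and 1.254 (adjusted p = 3.02e-11 and 5.42e-13). The other tested metalloproteases of the list, Mmp9 and Mmp14, did not share this pattern. Mmp9 was at 23.81 CPM with GW3965 and 21.39 with the combination, with an interaction of -0.08 (adjusted p = 0.613). Mmp14 was not called against DMSO, and its interaction was 0.07 (adjusted p = 0.292). Fn1, fibronectin, and Thbs1, thrombospondin 1, fell with the combination by 1.35 and 0.77 (adjusted p = 5.74e-12 and 3.22e-10) and were not called with DSHN (adjusted p = 0.429 and 0.178) or GW3965 (adjusted p = 0.914 and 0.64). Both are long genes (8471 and 5848 exon bases), and the combination libraries had fewer counts on long genes. These 2 falls are given without the length correction.

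Of 27 clade B serpins, the family of Serpinb2, 13 had no count in any library, and 8 besides Serpinb2 were tested. Serpinb8, the nearest on chromosome 1 with more than 5 counts in a library, was 64338 bases away at 492 to 820 counts and was not called against DMSO, as given above. Serpinb10 and Serpinb7, on the same chromosome at 3394 and 58734 bases, had at most 5 counts. With DSHN 2 of the 8 were lower and 1 higher, with GW3965 5 lower and 1 higher, and with the combination 3 lower and 1 higher. The shares of all tested genes were 14.8%, 23% and 32.9% lower and 14.1%, 23.6% and 31.9% higher, and the counts lower with the combination and higher with DSHN lie near them. Serpinb9, the inhibitor of granzyme B, fell by 0.23, 0.58 and 0.32 (adjusted p = 0.00136, 1.33e-09 and 6.71e-06), and Serpinb6b by 0.38, 0.57 and 0.24 (adjusted p = 6.71e-06, 3.07e-09 and 0.000445). Both were above their GW3965 level with the combination, by 0.26 and 0.34 (adjusted p = 0.000219 and 1.25e-05). No other tested gene of the family had a fold change against DMSO as large as that of Serpinb2. Serpinb2 was chosen for the size of its fall, so this order is no finding about the family.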

How the data were processed

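RNA of 20 macrophage cultures was turned into libraries with a stranded Kapa mRNA kit (per the labels' protocols). Alignment was with STAR, per the submitters' processing notes. Per the file headers, featureCounts v2.0.0 then assigned reads to RefSeq genes of GRCm39. Each deposited file holds the raw counts of 1 library, without normalization. No strand option was set, so both strands were counted. The 1569 genes with no symbol in the RefSeq table (0.474% of counts) were kept under their GeneIDs and passed through the same filter as the others. The members and the gene lists were chosen with earlier results of these data known. Some items that fall under these lists and rules are not reported here, and the list counts leave them out.

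After filterByExpr (13307 genes, all 3 members among them) and TMM scaling, edgeR 4.0.16 (R 4.3.3) was used for quasi-likelihood fits of 1 mean per treatment on all libraries, with 7 contrasts and Benjamini-Hochberg adjustment over all genes of a contrast (threshold 0.05). The tests of Serpinb2 planned between treatments are not reported, because the compounds' libraries took part in its choice. Intervals are 95% from the fit. Correlations used log2 CPM with a prior count of 2. The biological coefficient of variation was 0.0536, and replicates differed beyond counting noise (chi-square of 2.47 to 13.34 per degree of freedom, 40 pairs).

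Named genes were the members, genes of the activator, inhibitor and receptor lists that reached 5 CPM on average in some group, up to 4 each of the plasmin targets, coagulation genes and clade B serpins with that level by smallest adjusted p, and for the pattern the 6 highest, the 3 lowest and the 3 highest on deviations. In simulated counts for DSHN against DMSO (13196 genes), 50 genes per size were changed: 30 were recovered at 1.25-fold, 36 at 1.5-fold, 44 at 2-fold and 49 at 4-fold, with 5 false calls. Alternatives were DESeq2 size factors, total counts, no filter, a filter of 100 counts and of 1 CPM in 5 libraries, the DESeq2 test (1.42.0), voom (limma 3.58.1), only the groups compared, a replicate block, a length correction (offsets from a 5 df spline of log2 exon length), both together, and leaving out each library.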

Additional observations from a re-analysis of the deposited data

Results flagged for a closer look

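In 6 of 124 sets of 5 libraries, 1 library lay far from the other 4, about what chance gives (1 in 20). Serpinb2 was at 2.214 CPM in library 4 of the combination, where the others had 1.127 to 1.368 CPM. In the combination, S100a10 was at 172.6 CPM in library 1 (others 195.9 to 204.1), Anxa2 at 744.6 CPM in library 2 (others 687.5 to 703.6) and Thbd at 24.36 CPM in library 4 (others 19.72 to 20.62). Pf4 was at 139.2 CPM in library 1 of GW3965 (others 151.1 to 155.5), and Serpinb9 at 35.06 CPM in library 5 of DMSO (others 30.54 to 31.71).

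The DSHN effect differed with and without GW3965, by edgeR's interaction test, for 21 of 31 genes. Of all tested genes, 23.7% were called in the positive direction and 26.5% in the negative. The 31 include Serpinb2, which was not tested and could not be counted. They also include the plasmin targets, coagulation genes and clade B serpins that were named by smallest adjusted p in these data. That choice can raise the count, so no excess over the shares of all genes is read from it. The DSHN effect was more positive with GW3965 for Plau (1.553), Mmp13 (1.254), Plaur (1.203), Mmp12 (1.063), Procr (0.803), Serpinb6b (0.718), S100a10 (0.536), Serpinb9 (0.485), Pf4 (0.402), Anxa2 (0.343), Eno1 (0.26) and Hmgb1 (0.217). It was more negative for Fn1 (-1.26), Lrp1 (-1.088), Igf2r (-0.824), Vldlr (-0.721), Thbs1 (-0.683), Sorl1 (-0.628), Mrc2 (-0.402), Serpinb6a (-0.26) and Itgb1 (-0.124). These sizes are without the length correction. With it, the combination differed from GW3965 by 0.053 for S100a10 and -0.053 for Anxa2, in place of 0.415 and 0.125. With the length correction the calls of Eno1, Itgb1 and Pf4 were lost, and that of Itgb1 was also lost without library 4 or 5 of DSHN or 3 or 4 of the combination, at -0.104 to -0.095. Plgrkt (-0.282, adjusted p = 0.000784) and Itgav (0.278, adjusted p = 0.000355) became calls with that correction.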

How the results depend on the processing

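Against DMSO, all 3 members kept their direction, and Plau and Plaur their calls, in 10 alternatives and without any 1 library. The log2 values over the 10 alternatives ran from -2.28 to -2.23 (DSHN), -2.81 to -2.73 (GW3965) and -2.99 to -2.82 (combination) for Serpinb2, from -1.29 to -1.25, -1.32 to -1.26 and -1.07 to -0.97 for Plau, and from -0.75 to -0.72, -1.35 to -1.29 and -1.03 to -0.81 for Plaur. The interactions of Plau (1.45 to 1.63) and Plaur (1.03 to 1.28) kept their calls. Calls between treated groups were less stable. Plau with the combination against GW3965 became a call with total counts (0.34), no filter (0.28), the stricter filter (0.29), voom (0.29), the replicate block (0.29), the block with the length correction (0.20) and only the groups compared (0.29), and ran from 0.21 to 0.41 without 1 library each, with calls without library 2 or 3 of the combination or 4 or 5 of GW3965. Plau against DSHN lost its call with DESeq2 size factors (0.28), DESeq2 (0.29), voom (0.28), the length correction (0.20) and the block with it (0.19), and ran from 0.21 to 0.36 without 1 library each. The untested Serpinb2 values ran from -0.73 to -0.56 (combination against DSHN) and -0.24 to -0.01 (combination against GW3965) over the 10 alternatives, and from -0.78 to -0.50 and -0.30 to 0.22 without 1 library each. Plaur with the combination against DSHN became a call with the length correction (-0.28) and with the block added (-0.29). Of the 6 genes most like Serpinb2, 0 remained among the first 6 by Spearman correlation. With the length correction, and with the block added, signs turned for S100a10 (-0.315 and -0.316), Anxa2 (-0.187 and -0.187) and Vldlr (0.034 and 0.033) in the combination against DMSO, for Anxa2 against GW3965 (-0.053 and -0.053), and for S100a10 (-0.141 and -0.142) and Pf4 (-0.016 and -0.017) against DSHN. The causes were not tested. The replicate numbers were not used as pairs in the main fit. The correlation of same-numbered deviations was not over 0.1 in every pair. It ran from 0.084 to 0.166 (DMSO and GW3965), 0.043 to 0.119 (DMSO and combination) and 0.027 to 0.247 (GW3965 and combination). In these pairs of groups 3, 4 and 4 of 5 libraries matched their own number best. In pairs with DSHN the correlation ran from -0.205 to 0.147, and 0 or 1 library matched. The matches are a hint from the data, not the design. Counts of called genes stayed within 1.5-fold. Scaled by total counts, GW3965 against DMSO had 2267 genes higher and 4000 lower, in place of 3136 and 3058, GW3965 against DSHN 768 and 1641, in place of 1104 and 1174, and the interaction 4069 and 2853, in place of 3154 and 3527, while the median of all genes lay between -0.048 and 0.08 over the 7 contrasts. Serpinb2 had 14 to 60 counts per treated library, which limits contrasts among treatments.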

Other observations

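Coagulation genes, which meet the plasminogen system at fibrin, were mostly low or not called with DSHN. Of 12 listed genes 8 were tested, and against DMSO 1 was higher and 1 lower with DSHN, 2 and 2 with GW3965, and 3 and 3 with the combination, near the shares of all tested genes called higher (14.1%, 23.6% and 31.9%) and lower (14.8%, 23% and 32.9%). F3, tissue factor, lies under the 5 CPM minimum for named genes and was chosen after its values were seen. It fell from 1.511 CPM with DMSO by 0.82 with DSHN (log2, adjusted p = 0.0168), by 1.45 with GW3965 (adjusted p = 0.000119) and by 1.09 with the combination (adjusted p = 0.00101). The DSHN call of F3 was lost without library 1 (-0.73) or 5 (-0.63) of DMSO. The other genes called lower with the combination, F2r (-0.61, adjusted p = 0.00199) and F10 (-0.53, adjusted p = 0.0118), also lie under that minimum and were chosen in the same way. Pf4, platelet factor 4, a chemokine that macrophages also make, stood at 152.7 ± 17.28 CPM in DMSO libraries, 189.9 ± 14.73 in DSHN, 150.4 ± 6.454 in GW3965 and 247.8 ± 16.38 in combination libraries (SD, n = 5). It rose by 0.32 with DSHN (adjusted p = 0.000315) and by 0.70 with the combination (adjusted p = 2.1e-10), or by 0.25 with the length correction. Procr, the endothelial protein C receptor, fell by 0.35 with GW3965 (adjusted p = 0.00264) and rose by 0.32 with the combination (adjusted p = 0.00211). Tfpi, the inhibitor of tissue factor, rose by 0.27 with the combination (adjusted p = 4.82e-05). Thbd, thrombomodulin, was not called with DSHN (-0.01) or the combination (0.08), and its call with GW3965 (0.19, adjusted p = 0.0311) was lost without library 1, 2 or 3 of DMSO or 3, 4 or 5 of GW3965 (0.15 to 0.19).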
